A study of Gasterosteus aculeatus with 227 samples.

Results

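The 126 genes described here had no read in any female library of threespine stickleback and at least 1000 reads summed over the male libraries in each of 3 tissues, liver, gills and brain. They were chosen by those counts from 25994 genes listed in the deposited tables. The gene kras, which meets the same rule, was left out. The 227 libraries came from 40 male and 40 female fish, untreated and caught in the wild at Baie de l'Isle Verte in the breeding season, with no age given. Liver gave 39 male and 38 female libraries, gills 36 male and 36 female, and brain 39 male and 39 female. A tag in the library names joined the tissues of a fish, and 34 males and 35 females had all 3 tissues. Libraries were made with the QuantSeq forward kit, which reads the 3′ end of polyadenylated transcripts, so that a transcript gives about 1 read whatever its length. Levels are the reads of a gene per 1000000 reads assigned to genes (CPM), and levels of different genes are therefore levels of 3′ tags.

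In this fish, males carry an X and a Y chromosome and females a pair of X chromosomes. Over most of its length the Y no longer recombines with the X; the genes kept there have diverged from their X copies to varying degrees, and only males transmit them. In a short shared segment X and Y still recombine, and genes there remain alike on both chromosomes. Whether each male-only transcript described here is read from the Y was not tested.

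The gene table of the current RefSeq stickleback assembly (fGasAcu3.hap1.1) placed 121 of the 126 genes on the Y, 1 on the X (LOC120812675) and 1 on chromosome 9 (LOC120812612). It held no entry for the other 3 (hsp90b1, LOC120812288 and LOC120812324). Of the 126 genes, 119 were listed as protein coding and 4 as long non-coding RNA. The build behind the counts is not given in the sources used here, so the table served for names, chromosomes and neighbours only. Only hsp90b1 carried a gene symbol. In vertebrates it encodes endoplasmin, the HSP90 chaperone of the endoplasmic reticulum, which folds secreted and membrane proteins. The other 125 carry locus identifiers, for which no role is given here.

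The 125 locus identifiers ran from LOC120812180 to LOC120812892, including the pair that the table places on the X and on chromosome 9. The tables list 586 genes in that range of identifiers, and 565 of them had no female read. Of 526 Y genes listed, 56 had no read in any library, and 424 had male reads and no female read. Of those 424, 303 missed the floor of 1000 male reads in at least 1 tissue. Another 7 Y genes reached the floor and had female reads, and none of these had an identifier in that range. Their female level was 0.530 to 2.31 times the male level in liver (median 0.599), 0.666 to 1.10 times in gills (median 1.02) and 0.884 to 1.14 times in brain (median 0.973). No Y gene at the floor lay between these values and 0. Among all 10228 genes at the floor, 1.24% had no female read, kras included. Of 8955 genes on autosomes and 272 on the X at that floor, 1 each had none.

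Male libraries held 1440706 reads of the 126 genes in liver, 1748008 in gills and 1990060 in brain. Female libraries held 0 in every tissue, among 395713381 gene-assigned reads in liver, 466257127 in gills and 481126115 in brain. At this depth a count of 0 allows a female level of up to 0.00758 CPM in liver, 0.00643 CPM in gills and 0.00624 CPM in brain for each gene, by counting error alone. These values are the rule itself and were not tested. Whether female reads were counted against a reference with the Y chromosome is not given in the sources used here, so absent RNA and uncounted reads in females cannot be told apart. Reads that match a Y gene and its X copy alike may be split or dropped in counting, and the levels are uncertain to that extent.

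Library totals ran from 8829 to 27770413 reads in male liver, from 6807598 to 16050914 in male gills and from 8464756 to 17558655 in male brain. Levels, correlations and the main tissue tests below use the 107 male libraries of at least 1000000 reads (32 liver, 36 gill and 39 brain). Of the marker genes looked for, 4 liver, 4 gill and 5 brain genes were listed. All 4 liver markers, all 4 gill markers and 4 of the 5 brain markers had their highest male mean in their own tissue. Liver markers, summed, had a median of 115037 CPM in liver, 152 CPM in gills and 4232 CPM in brain, and in brain ran up to 10308 CPM. The 6 testis markers summed to medians of 8.82, 30.3 and 28.4 CPM in liver, gills and brain. Their part in the results was not tested.

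Some male libraries stand apart. The brain (male replicate 12), gills (male replicate 11) and shallow liver (male replicate 12) of 1 male fish held few reads of the 126 genes. The livers of male replicates 32 and 35 had 5395 and 11575 CPM of vtg3, the gene of a vitellogenin, the egg yolk precursor that the female liver makes. Among livers of at least 1000000 reads, the other 30 male livers had 6.80 to 333 CPM of vtg3 (median 16.3). In the same depth class, 33 female livers had 167 to 15324 CPM (median 9317). Of the shallow male livers, replicate 12 had 2293 CPM of vtg3 and replicate 11 had 4340 CPM. A further 2 female livers, replicates 17 and 23, had 40.4 and 15.2 CPM of vtg3 and no read of any of the 126 genes, as had the brains and gills of the same fish.

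The summed level of the 126 genes was 3459 ± 884 CPM in male liver (SD, n = 32), 4283 ± 740 CPM in male gills (n = 36) and 4259 ± 630 CPM in male brain (n = 39). Liver ran from 705 to 4893 CPM with a median of 3626, gills from 521 to 5094 CPM with a median of 4414, and brain from 951 to 4905 CPM with a median of 4387. Without the libraries that stand apart the sums were 3624 ± 616 CPM in liver (n = 30), 4391 ± 369 CPM in gills (n = 35) and 4346 ± 323 CPM in brain (n = 38). The coefficient of variation (SD over mean) was then 0.170 in liver, 0.0840 in gills and 0.0743 in brain. Female sums are 0 by the rule itself, so that they lie below every male library is no result. In whole tissues, fewer cells of a type and less RNA per cell cannot be told apart.

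**Figure D1:**
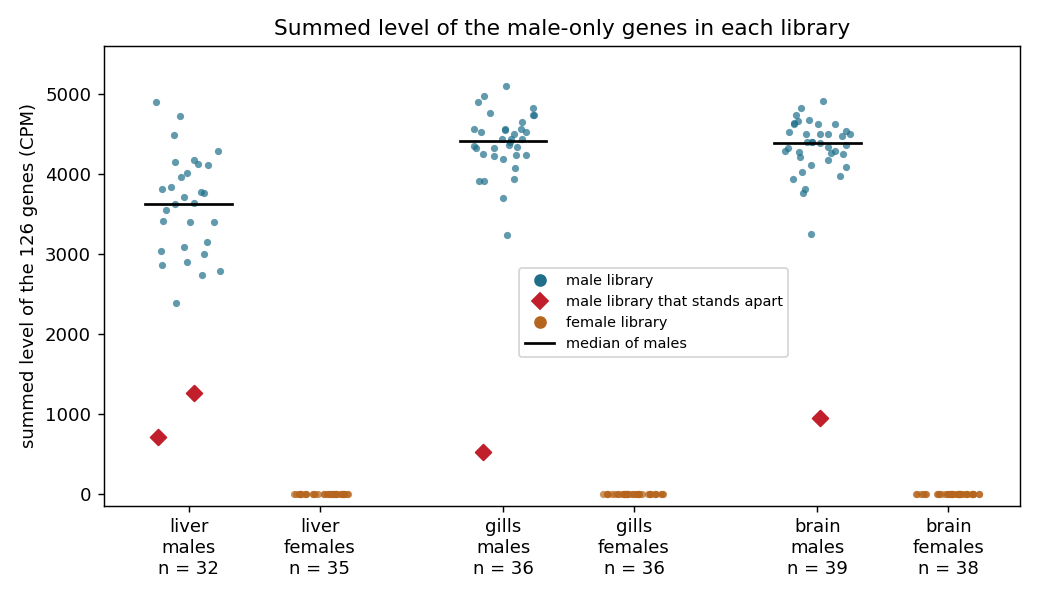
Summed level of the 126 genes (CPM, vertical axis) in each library of at least 1000000 reads, by tissue, males left of females; each point is 1 library, the bar is the male median and diamonds are male libraries that stand apart. All female points lie at 0 by the rule, while male medians are 3626 CPM in liver, 4414 CPM in gills and 4387 CPM in brain.

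The reads were spread over many genes in brain and gathered in fewer in liver. The 10 highest genes held 63.9% of the summed level in liver, 46.8% in gills and 33.9% in brain. LOC120812678 led in liver with 13.9% of the sum and in gills with 11.2%, and LOC120812459 led in brain with 5.18%. The median gene had a mean of 7.12 CPM in liver, 15.8 CPM in gills and 17.9 CPM in brain. Without the libraries that stand apart, 119 of the 126 genes were counted in every male library of all tissues. With them, 54 were. In CPM, 14 genes were highest in liver, 54 in gills and 58 in brain. Liver was the lowest tissue in CPM for 92. The highest and lowest tissue were not tallied over all genes. In the tissue tests below, scaled by library totals as CPM is, most genes were lower in liver. Of all genes, 79.2% were called lower in liver than in brain and 84.2% lower than in gills.

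Over the 3 tissues, the protein-coding Y gene LOC120812678 had the highest level. It had 254 to 686.5 CPM in male liver (median 499), 104 to 708 CPM in gills (median 510) and 117 to 311 CPM in brain (median 165), libraries that stand apart left out. In these libraries the brain range overlapped both others. LOC120812476 followed with medians of 429 CPM in liver, 361 CPM in gills and 151 CPM in brain. LOC120812312 had medians of 340, 339 and 125 CPM in the same order. Both were thus lowest in brain in CPM, as was LOC120812704 (148, 176 and 61.2 CPM). Females had 0 reads of each of these genes.

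LOC120812459 and LOC120812473 had the opposite order in CPM. Medians and ranges in CPM in this paragraph leave out the libraries that stand apart. LOC120812459 had medians of 57.0 CPM in liver, 109 CPM in gills and 225 CPM in brain, and its brain libraries, at 123 to 344 CPM, all lay above the liver libraries, at 19.2 to 107 CPM. LOC120812473 had medians of 64.9, 102 and 138 CPM. LOC120812227 was close to level, with medians of 57.2 CPM in liver, 64.6 CPM in gills and 73.9 CPM in brain. For LOC120812473 and LOC120812227 these orders hold for CPM only. For LOC120812459 the order of liver and gills is given in CPM only, and its order with other scalings is not given here. With TMM scaling, described below, LOC120812473 and LOC120812227 were higher in liver than in brain by 0.45 ± 0.17 and 1.17 ± 0.13 (log2, SE). With library totals their values were -1.21 and -0.47. LOC120812459 was lower in liver than in brain with voom too (log2 -0.40), but did not pass there (limma adjusted p = 0.153). With the size factors of DESeq2 LOC120812473 had 0.11 and did not pass (edgeR adjusted p = 0.514), and it also missed the threshold with DESeq2's test, with voom, with the replicate number as the block and with shallow libraries included. LOC120812538 stood out by its range. It had 3.03 to 1397 CPM in liver (median 249), 2.26 to 15.4 CPM in gills (median 7.31) and 32.9 to 320.5 CPM in brain (median 104). Every brain library was above every gill library for this gene, while the liver range overlapped both.

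**Figure D2:**
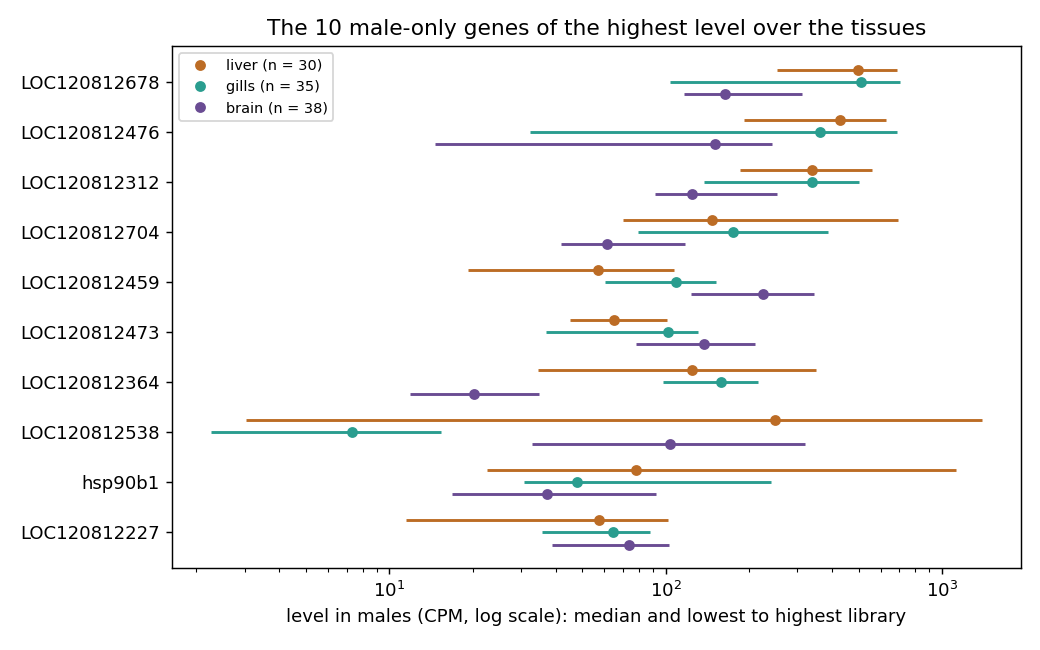
Level in males (CPM, log scale, horizontal axis) of the 10 genes with the highest level over the 3 tissues, with the median (dot) and the lowest to highest library (line), libraries that stand apart left out. LOC120812678 leads in liver and gills with medians of 499 and 510 CPM, and LOC120812538 has a gill median of 7.31 CPM beside liver and brain medians of 249 and 104 CPM.

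Tissues were compared within males, with the fish as a block, by edgeR's quasi-likelihood test over 19377 genes and the 107 libraries. The male-female rule does not use this contrast, although the floor of 1000 reads in each tissue keeps out genes silent in any tissue. All 126 genes passed the filter on low counts. Libraries were scaled by TMM, which sets the typical gene equal across libraries. This choice matters for liver, where the 10 most abundant genes took a median of 33.7% of the reads, against 9.77% in gills and 8.58% in brain. The median TMM factor was 0.483 in liver, 1.44 in gills and 1.41 in brain. By library totals alone the median of all genes was -1.80 (log2) for liver over brain and -1.84 for liver over gills, against -0.18 and -0.22 with TMM. Fold changes below include the libraries that stand apart, and the ranges and medians in CPM beside them leave those out. Without them none of the 18 fold changes named as the largest moved by more than 0.22 (log2), and all remained past the threshold.

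For gills over brain, 46 of the 126 genes (36.5%) were higher and 42 (33.3%) lower at an adjusted p under 0.05 (edgeR). Of all genes tested, 41.0% were higher and 41.2% lower. The 10101 other genes at the same floor had 44.9% higher and 34.7% lower. The median log2 fold change of the 126 genes was 0.09, against 0.00 for all genes and 0.13 for the 10101 other genes at the same floor. With the size factors of DESeq2 in place of TMM the split was 37 higher and 50 lower, against 37.2% and 44.8% of all genes. With library totals it was 42 and 42, against 40.7% and 40.5% of all genes. Under all 3 scalings, 37 genes were higher and 42 lower. Calls under all 3 scalings were tallied for the 126 genes only, so no share of all genes can be set beside them.

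LOC120812342 showed the largest rise. It had 21.5 to 658 CPM in gills (median 123) and 2.48 to 186 CPM in brain (median 7.13), and the ranges overlapped through the brain libraries of male replicates 30 and 36. Its fold change was 3.72 ± 0.34 (log2, SE), adjusted p = 2.28e-16 by edgeR. LOC120812364 had 97.9 to 215.5 CPM in gills and 11.8 to 34.8 CPM in brain, with no overlap, a rise of 3.08 ± 0.16 (edgeR adjusted p = 5.61e-30). LOC120812481 was higher in gills by 2.13 ± 0.13, with medians of 16.4 and 4.52 CPM in gills and brain (edgeR adjusted p = 9.03e-25). The largest falls were those of LOC120812538 at -4.05 ± 0.23, LOC120812567 at -3.44 ± 0.18 and LOC120812444 at -3.09 ± 0.26. LOC120812567 had 4.11 to 28.2 CPM in gills and 68.3 to 175 CPM in brain. LOC120812444 had 1.83 to 16.9 CPM in gills and 23.6 to 66.7 CPM in brain. Neither gene's gill range reached its brain range, apart from brain replicate 12 of the fish that stands apart, with 6.69 CPM of LOC120812567 and 6.06 CPM of LOC120812444.

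For liver over brain, TMM scaling gave 65 genes (51.6%) higher and 37 (29.4%) lower, where 37.7% of all genes were higher and 45.5% lower. Among the other genes at the floor, 54.3% were higher and 31.3% lower. The median log2 fold change was 0.37 for the 126 genes, -0.18 for all genes and 0.42 for the other genes at the floor. The split was 53 and 47 with DESeq2's size factors, against 31.1% and 52.6% of all genes. With library totals it was 17 (13.5%) and 93 (73.8%), against 12.1% and 79.2% of all genes. Those 17 higher genes and 37 lower ones were called under all 3 scalings. For liver over gills, 71 (56.3%) were higher and 23 (18.3%) lower, against 33.3% and 43.6% of all genes. Among the other genes at the floor, 47.7% were higher and 33.1% lower. The medians were 0.43, -0.22 and 0.21. The split was 56 and 34 with size factors, against 28.8% and 49.2% of all genes. With totals it was 7 (5.56%) and 103 (81.7%), against 8.69% and 84.2% of all genes. Under all 3 scalings 7 were higher and 23 lower. For both liver contrasts, too, the calls under all 3 scalings were not tallied over all genes. Without the libraries that stand apart, TMM gave 72 higher and 37 lower for liver over brain and 80 and 22 for liver over gills. Of all genes, 38.4% were then higher and 44.6% lower for liver over brain, and 34.1% and 42% for liver over gills.

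The genes with the largest differences kept their direction under library totals too. LOC120812364 was the most raised gene in liver over brain, with 34.4 to 350.5 CPM in liver and 11.8 to 34.8 CPM in brain, ranges that met at their ends. Its log2 fold change was 4.18 ± 0.17 with TMM (edgeR adjusted p = 4.41e-36) and 2.56 with totals. LOC120812241 was raised by 3.35 ± 0.19, with medians of 27.7 CPM in liver and 8.60 CPM in brain, and LOC120812491 by 3.18 ± 0.20, with medians of 13.7 and 4.80 CPM. In the other direction, LOC120812567 had 0.659 to 11.6 CPM in liver and 68.3 to 175 CPM in brain, a log2 fold change of -3.59 ± 0.19 (edgeR adjusted p = 5.77e-29). LOC120812460 had a log2 fold change of -3.15 ± 0.18, with medians of 4.97 CPM in liver and 118 CPM in brain. LOC120812518 had one of -2.98 ± 0.15, with medians of 6.43 and 153 CPM. For these brain genes no liver library reached the lowest brain library, libraries that stand apart left out.

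For liver over gills, LOC120812538 was raised by 6.95 ± 0.27 (log2, edgeR adjusted p = 6.89e-37), and by 5.29 with totals. LOC120812214 was raised by 3.65 ± 0.22, with 10.8 to 101 CPM in liver and 5.88 to 19.9 CPM in gills. LOC120812715 was raised by 3.28 ± 0.21, with medians of 11.3 CPM in liver and 3.03 CPM in gills. LOC120812342 had the largest fall, -5.35 ± 0.42 (edgeR adjusted p = 1.44e-19). It had 0 to 81.3 CPM in liver with a median of 0.691, and all but 1 of those livers lay below the lowest of those gill libraries. The gills that stand apart (replicate 11) had 0.666 CPM. Without a fish block the lowest fold change of any of the 126 genes was -3.76 (log2), so the fall of LOC120812342 was smaller there. LOC120812361 fell by 1.79 ± 0.15 and LOC120812318 fell by 1.73 ± 0.16 on the log2 scale. LOC120812318 had 0.162 to 13.2 CPM in liver and 26.8 to 72.6 CPM in gills.

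Across the 3 contrasts with TMM, 117 of the 126 genes (92.9%) were called in at least 1 and 59 (46.8%) in all 3, against 96.6% and 52.0% of all genes tested. A difference of at least 2-fold was called for 74 genes (58.7%) and one of at least 4-fold for 34 (27.0%), against 78.3% and 52.9% of all genes. Among the other genes at the floor, 68.7% and 35.5% had such differences. Liver was above both other tissues for 52 genes (41.3%), gills for 11 (8.73%) and brain for 26 (20.6%). Of all genes 24.9%, 23.9% and 31.4% had those patterns, and of the other genes at the floor 37.6%, 18.6% and 21.7%. This tally depends on the scaling: with library totals it was 4 genes (3.17%) for liver, 33 (26.2%) for gills and 38 (30.2%) for brain. With library totals these patterns were not tallied over all genes, so whether all genes shift alike is not shown.

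**Figure D3:**
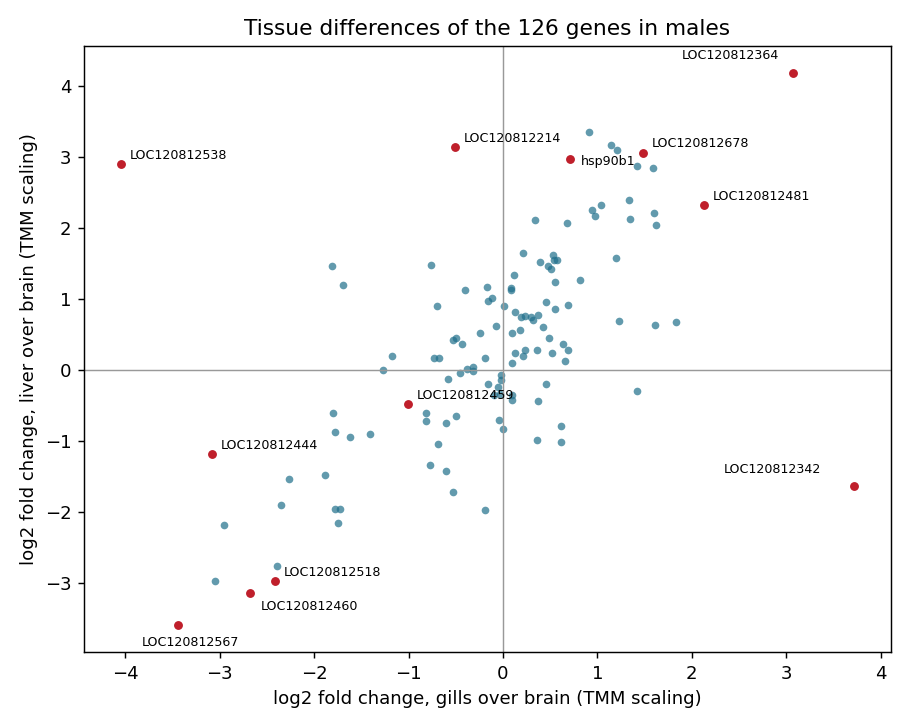
Log2 fold change of each of the 126 genes in males, gills over brain (horizontal axis) and liver over brain (vertical axis), with TMM scaling; each point is 1 gene and named genes are red. LOC120812364 is raised in both (3.08 and 4.18), LOC120812567 is lowered in both (-3.44 and -3.59), and LOC120812538 (-4.05 and 2.90) and LOC120812342 (3.72 and -1.64) change in opposite directions, the last without a call in liver over brain (-0.38) when no fish block is used; the brain values enter both axes.

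The 5 genes that the table does not place on the Y differed among themselves. LOC120812675, listed on the X, had medians of 4.24 CPM in liver, 8.52 CPM in gills and 45.6 CPM in brain. Its log2 fold change was -2.35 ± 0.18 for gills over brain (edgeR adjusted p = 1.27e-20) and -1.91 ± 0.19 for liver over brain. The long non-coding RNA gene LOC120812612, listed on chromosome 9, was highest in gills in CPM, with medians of 13.9, 29.1 and 12.3 CPM in liver, gills and brain, while the log2 fold change for liver over gills was 0.38 ± 0.18 with TMM (edgeR adjusted p = 0.0453) and 0.19 with DESeq2's size factors (edgeR adjusted p = 0.345). That call was also lost with DESeq2's test, with no filter on low counts, with the replicate number as the block and with shallow libraries included, and with library totals the value was -1.25. Gills exceeded brain by 1.20 ± 0.16 for this gene (edgeR adjusted p = 6.95e-10). LOC120812288 had medians of 44.0, 63.2 and 60.6 CPM and did not pass the test between gills and brain (log2 0.01 ± 0.15, edgeR adjusted p = 0.935). LOC120812324 had medians of 10.5, 14.5 and 53.7 CPM.

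The fifth, hsp90b1, had 22.6 to 1124 CPM in male liver (median 77.8), 30.8 to 241 CPM in gills (median 47.6) and 16.8 to 92.3 CPM in brain (median 37.3). With TMM it was higher in liver than in brain by 2.97 ± 0.22 (log2, edgeR adjusted p = 1.1e-20), and by 1.35 with library totals. It was higher in liver than in gills by 2.26 ± 0.23 and in gills than in brain by 0.71 ± 0.20 (edgeR adjusted p = 1.45e-14 and 0.000951). The gill difference did not pass with voom (0.69, limma adjusted p = 0.0619). The upper end of its range came from few fish. In liver, replicates 21, 24, 22 and 23 had 1124, 532, 531.5 and 419 CPM, and the next liver had 182 CPM. In gills the highest libraries, replicates 21 and 20, had 241 and 151 CPM, and in brain replicates 24 and 23 had 92.3 and 73.8 CPM. Brain 24, gills 21 and liver 24 came from 1 fish, and brain 23, gills 20 and liver 23 from another. The fish of the highest liver, replicate 21, had 35.2 CPM in brain and 47.0 CPM in gills, near the medians.

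Fish of liver replicates 21, 22, 23 and 24 led for further genes too, with a different order among them by gene and tissue. LOC120812834 had its highest brain levels in replicates 23 and 24 (182 and 133 CPM, median 50.3), its highest gill levels in replicates 21 and 20 (170 and 121 CPM, median 28.1) and its highest liver level in replicate 23 (374 CPM, median 16.7). LOC120812361 reached 120, 97.5 and 67.2 CPM in brain replicates 22, 24 and 23, against a median of 33.1, and 84.6 and 64.4 CPM in gill replicates 21 and 20, against a median of 29.5. LOC120812704 and LOC120812241 were highest in liver in replicates 21, 23 and 22, at 692, 577.5 and 545 CPM for the first and 172, 119 and 82.2 CPM for the second. These genes were singled out after their values were seen, and nothing on those fish beyond sex and tissue was used.

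**Figure D4:**
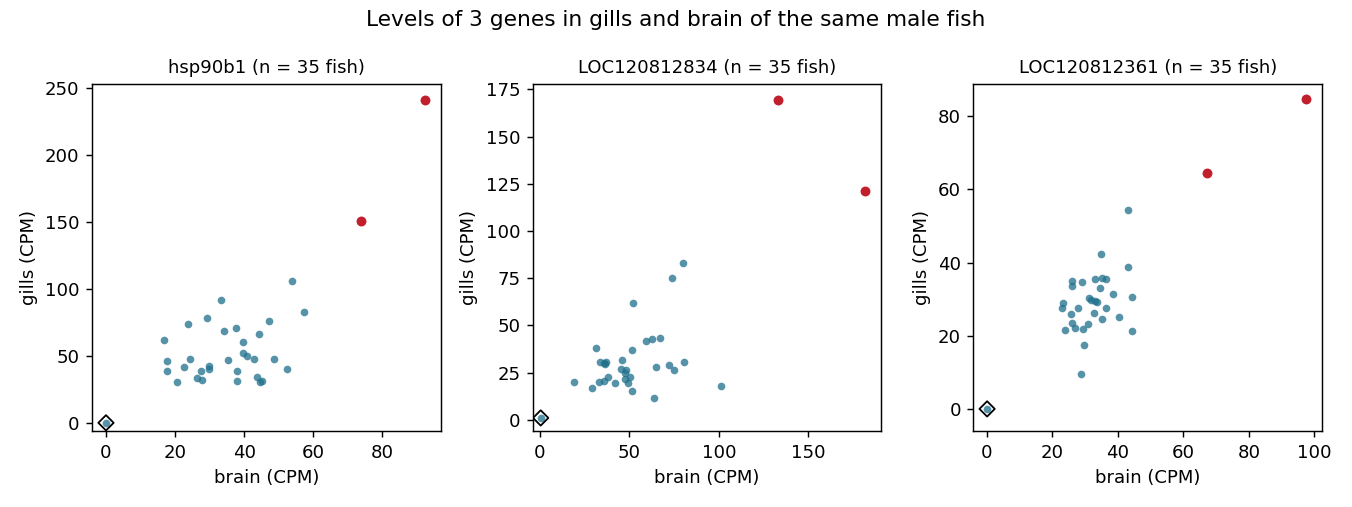
Levels (CPM) of hsp90b1, LOC120812834 and LOC120812361 in brain (horizontal axis) and gills (vertical axis) of the same 35 male fish; each point is 1 fish, red points are the fish of gill replicates 20 and 21 and the diamond is the male fish that stands apart. For each gene the red points are the highest in gills, at 151 and 241 CPM for hsp90b1.

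Levels of a fish in a pair of tissues were compared for every gene by Spearman's rho with a permutation p, adjusted over all genes tested in the pair. None of the 126 genes passed in any pair. Of all genes tested, 0.0452% passed for liver and gills, 0.127% for liver and brain and 0.936% for gills and brain. At an unadjusted p under 0.05, 8, 13 and 24 of the 126 genes had a positive rho in those pairs, and 0, 2 and 0 a negative one. Of all genes tested, 7.38%, 8.71% and 11.2% had a positive rho at that level, and of the 126 genes 6.35%, 10.3% and 19.0%. Without the libraries that stand apart the counts were 9, 10 and 11, or 7.14%, 7.94% and 8.73% of the 126, against 6.18%, 8.83% and 11.0% of all genes. By Pearson's r, 6, 14 and 102 were positive at that level, and the 102 became 17 without the male fish that stands apart. Pearson's r by gene was computed for the 126 genes only, so these counts cannot be set against all genes. No gene of the 126 passed without the libraries that stand apart either. The smallest adjusted p between gills and brain was that of LOC120812361 (rho 0.50, permutation adjusted p = 0.129, n = 35 fish). For hsp90b1, rho was 0.39 for gills and brain and 0.46 for liver and brain, with permutation adjusted p-values of 0.317 and 0.357.

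The summed level gave a Pearson r of 0.81 between gills and brain over 35 fish (permutation p = 0.00299, adjusted over the 3 pairs 0.00897) and a Spearman rho of 0.37 (permutation p = 0.0311, adjusted 0.0933). Without the 2 fish farthest from the median brain level r was 0.22, and without the 1 male fish that stands apart it was 0.22 (permutation p = 0.211, adjusted 0.316). The relation rests on that fish. For liver and brain r was 0.28 over 31 fish and rho 0.26, and for liver and gills 0.02 over 29 fish and 0.09. Neither pair passed (permutation adjusted p for r = 0.180 and 0.929).

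Spread between males differed widely from gene to gene. Without the libraries that stand apart, the median coefficient of variation of the 126 genes was 0.494 in liver, 0.318 in gills and 0.272 in brain. The other 10101 genes at the floor had 0.476, 0.326 and 0.273. With the libraries that stand apart kept in, the 126 genes had 0.568, 0.353 and 0.318, and the other genes 0.517, 0.327 and 0.274. The libraries left out hold few reads of these same genes, so the comparison without them favours a small spread of the 126 genes. Over all 39 brains the smallest values were those of LOC120812660 at 0.150, LOC120812443 at 0.167 and LOC120812270 at 0.186. Without brain replicate 12 they were those of LOC120812446 at 0.128, LOC120812888 at 0.130 and LOC120812637 at 0.130, and LOC120812660 was at 0.151. LOC120812660 had 36.1 to 67.0 CPM over the male brains. The most variable in brain were LOC120812342 at 2.24, LOC120812875 at 0.813 and LOC120812538 at 0.666. Without brain replicate 12 these were at 2.21, 0.787 and 0.461, and LOC120812592, at 0.658, was above LOC120812538. For LOC120812342 the male brain replicate 30 had 186 CPM, the next 39.0 CPM and the median brain 7.13 CPM. LOC120812875 had 38.5 and 35.9 CPM in brain replicates 25 and 35, against a median of 7.35 CPM.

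As a description, the levels of 2 of the 126 genes had a median Spearman rho across males of 0.23 in liver, 0.15 in gills and 0.08 in brain, over 7875 pairs. Pairs of the other genes at the floor had medians of 0.19, 0.07 and 0.03. Genes measured in the same libraries share their depth and composition. In liver, LOC120812307 and LOC120812722 had a rho of 0.91 over 30 libraries. In gills, LOC120812476 and LOC120812678 had 0.87 over 35, and LOC120812476 and LOC120812539 -0.88. Single libraries led for many genes. Liver replicate 37 was the highest male liver for 39 of the 126 genes (31.0%) and for 23.3% of the other genes at the floor. Gill replicate 5 was highest for 20 genes (15.9%), against 4.99% of the other genes, and gill replicate 21 for 15 (11.9%), against 2.72%. Gill replicate 16 was highest for 8.73% of the 126 genes, against 11.4%. Brain replicates 10, 25 and 1 were highest for 7.14%, 7.14% and 6.35%, against 7.98%, 6.59% and 1.96%. These libraries were picked because they led for the most of the 126 genes, which favours a higher share of those genes.

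Along the Y, the 479 listed protein-coding and long non-coding RNA genes were put in their order in the gene table. Of the genes described here, 121 are among them. They form 33 neighbouring pairs, and the longest run has 4 genes (LOC120812659, LOC120812704, LOC120812652 and LOC120812770). By the median, neighbours had closer tissue differences than all pairs for liver over gills only. In the other contrasts they were farther apart, and no test was made. The median absolute difference between the log2 fold changes of neighbours was 0.82 for liver over gills, 2.02 for liver over brain and 1.35 for gills over brain. Over all 7260 pairs it was 0.92, 1.39 and 1.02.

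The libraries that stand apart did not lose all genes alike. In brain replicate 12 the summed level was 951 CPM, 21.7% of the median of the other male brains, with 12706218 reads in the library. The median gene stood at 0.0221 of the level in the other males. Of the 126 genes, 79 were below 0.05 of that level, 21 of them at 0 reads, and 9 were above 0.5. The gills of the same fish (replicate 11) had 521 CPM, 11.8% of the median, and a median ratio of 0.0491. The 79 genes lowest in this brain had a median ratio of 0.0150 in its gills, and none was above 0.5 there. The 9 genes above 0.5 in brain had a median ratio of 0.811 in gills, and 6 of them were above 0.5. The brain of this fish was below every other male for 115 genes and its gills for 106. The fish stands apart by its few reads of these same genes. Such counts, here and for the livers below, were made for the 126 genes only, without a share over all genes.

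In this fish LOC120812538 had 541 CPM in brain, 5.22 times the median of the other males and above their highest value of 320.5 CPM. Its gills had 6.56 CPM of this gene, within the other males. LOC120812711 had 65.7 CPM in brain and 88.7 CPM in gills, 1.89 and 2.21 times the medians. LOC120812660, chosen for its small variation over brains that included this one, had 47.2 CPM in brain and 44.6 CPM in gills, 0.920 and 0.811 of the medians, and LOC120812443, chosen in the same way, had ratios of 0.995 and 0.756. In contrast, LOC120812476 had 0.551 CPM in brain and 2.19 CPM in gills, and hsp90b1 had no read in brain and 0.285 CPM in gills.

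Liver replicates 32 and 35, of 2 other male fish, had 1261 and 705 CPM of the 126 genes, 34.3% and 19.2% of the median of other male livers. Their median ratios were 0.0198 and 0.0148, and 80 and 89 genes were below 0.05. LOC120812444 went the other way, with 516 and 331 CPM, against 2.10 to 18.5 CPM in the other male livers of at least 1000000 reads. The shallow liver of replicate 12, from the fish of brain 12, was also high for this gene, at 14.4 times the median of those other livers. In replicates 32 and 35 LOC120812538, at 570 and 283 CPM, was within the other males. The gills of the fish of liver 32 had 4565 CPM of the 126 genes, and the gills and brain of the fish of liver 35 had 4185 and 4028 CPM, all within the other males. All 126 genes were counted in each of those libraries. These livers thus differed from the other tissues of their own fish, whereas the fish of brain 12 was low in every tissue. The cause was not tested.

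**Figure D5:**
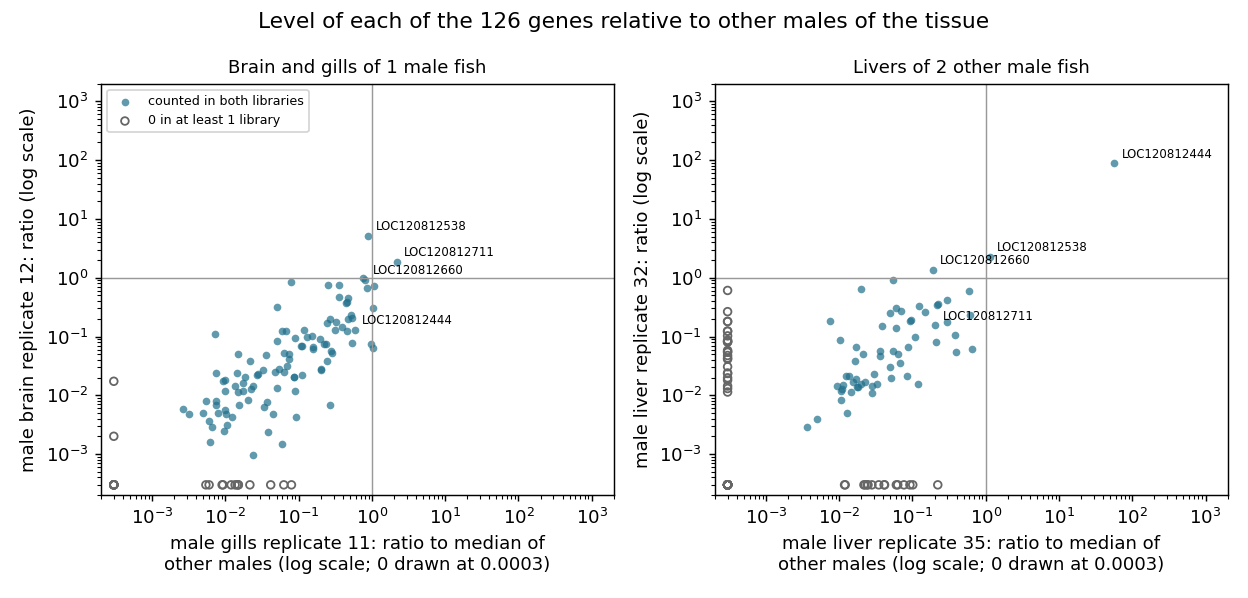
Level of each of the 126 genes relative to the median of the other males of the tissue (log axes, 0 drawn at 0.0003); left, gills replicate 11 (horizontal) and brain replicate 12 (vertical) of 1 fish; right, liver replicates 35 and 32 of 2 other fish. Most genes lie far below a ratio of 1, while LOC120812538 is at 5.22 in that brain and LOC120812444 at 57.1 and 89.0 in those livers.

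The floor of 1000 male reads cuts through a continuous range in liver, and the members nearest to it are given without a test. Just inside were LOC120812426 with 1011 reads in liver, 8248 in gills and 6310 in brain, LOC120812494 with 1015, 3988 and 3530, and LOC120812516 with 1015, 2171 and 3122. Just outside were LOC120812529 with 995, 1232 and 2140 reads, LOC120812890 with 990, 2115 and 8131, and LOC120812530 with 976, 3586 and 5069. All 6 missed or met the floor by their liver reads. None had a female read.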

How the data were processed

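The authors deposited 1 table of raw read counts per gene for each tissue, not normalised. Per the submitters' processing notes, fastp, STAR and HTSeq were used. Tool versions, annotation, strand setting and genome build are not given in the sources used here. Each table ends with 5 lines of reads given to no gene, which were left out of totals and tests. Reads in no feature came to a mean of 7.68% in liver, 11.0% in gills and 12.9% in brain, and ambiguous reads to 4.03%, 3.83% and 4.33%.

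Group and replicate number came from the sample titles, and fish from the tag in the column names. The genes were found by the rule in the opening, with 2 female livers low in vitellogenin kept as females. The members, the lists and the tests were chosen with earlier results of these data known. Counts were turned into CPM by the total over genes. Male tissue differences were fitted over all genes with edgeR 4.0.16 (TMM, filterByExpr, quasi-likelihood test with the fish as a block, robust dispersion), limma 3.58.1 and DESeq2 1.42.0 in R 4.3.3, with Benjamini-Hochberg adjustment. Standard errors are the fold change over the square root of F. The fit was tested on simulated data first. Correlations used 100000 two-sided permutations on genes with a mean of at least 1 CPM, and the correlation by gene was added after the data were seen. Male libraries under 1000000 reads, 7 of liver, entered only the alternative fit that included shallow libraries. The limits on female levels cover counting error only, while SDs and standard errors also hold variation between libraries.

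Genes were named by rule: the 10 of the highest geometric mean level, the 3 largest called rises and falls in each contrast, those with a symbol, those not on the Y, the 3 rows on each side of the floor, and the 3 of smallest and largest variation in brain. LOC120812834, LOC120812711, the further genes of small or large variation without brain replicate 12 and the genes named as pairs or as a run were chosen after their values were seen. The planned tests of X copies and of the Y share need protein sequences and were not run. Alternatives covered the scaling, the filter, the tool, the libraries, the block and the floor.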

Additional observations from a re-analysis of the deposited data

Results flagged for a closer look

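The 7 male livers under 1000000 reads, which the main comparisons leave out, all held reads of the 126 genes. That female libraries held none is the rule itself. Replicates 6, 7, 8, 11, 12 and 20 had 610, 1762, 971, 4340, 2293 and 1506 CPM of vtg3. The 30 deeper male livers that do not stand apart had 6.80 to 333 CPM. Earlier results of these data showed transcripts of other tissues in shallow libraries, so the sums below are not taken as male liver levels. Male liver replicate 6 had a summed level of 1872 CPM, replicate 7 had 2758 CPM, replicate 8 had 1474 CPM, replicate 11 had 2350 CPM, replicate 20 had 2126 CPM and replicate 39 had 2379 CPM. Replicate 12, from the male fish that stands apart in brain and gills, was the lowest at 335 CPM. In the shallowest of them, replicate 39, the 8829 reads of the library included 21 reads of 18 of the 126 genes.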

How the results depend on the processing

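Liver contrasts depended on the scaling. By library totals alone, 17 genes (13.5%) were higher and 93 (73.8%) lower in liver than in brain, against 12.1% and 79.2% of all genes. In liver against gills 7 (5.56%) were higher and 103 (81.7%) lower, against 8.69% and 84.2% of all genes. DESeq2's test gave 35 (27.8%) lower in liver than in gills, against 50.8% of all genes. Without a fish block, with no filter, with shallow libraries included, with voom and without the libraries that stand apart, these counts stayed within 1.5 times those reported. The replicate numbers of the labels do not mark the same fish across tissues. With the replicate number as a block in place of the fish, 37 genes were higher and 42 lower for gills over brain. Of all genes 40.9% and 40.8% were. For liver over brain it was 61 and 37, against 37.6% and 45.3% of all genes. For liver over gills it was 68 and 22, against 33.2% and 43.2% of all genes. A floor of 2000 male reads gave 80 genes, and one of 500 gave 173. The Pearson r of the summed level between gills and brain was 0.22 without the male fish that stands apart and 0.22 without all libraries that stand apart (permutation adjusted p = 0.316 each). All 18 fold changes named as the largest of a contrast kept direction and call under the 9 alternative fits. Planned fits of X copies, at 60 and 80% identity and with a replicate block, and the Y share were not run, for want of protein sequences here. Of the fits, the 7 male livers under 1000000 reads entered only the one with shallow libraries included, while their reads counted toward the floor. They were set aside in the other fits because earlier results of these data showed transcripts of other tissues in shallow libraries.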
